A study of Mus musculus with 71 samples.

Results

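Haematopoietic growth factor receptors were followed in mouse B-cell and T-lineage precursors through the RNA of 7 genes, Flt3, Kit, Csf1r, Csf3r, Csf2rb, Il7r and Crlf2. The 7 genes were taken by their symbols, as the receptors through which early blood cells receive their main growth and survival signals. They are 7 of the 25579 genes listed for the Pax5 experiments and 7 of the 24420 genes listed for the T-lineage stages. On GRCm38.p6 they lie at chr5:147330741-147400489 (Flt3), chr5:75574987-75656722 (Kit), chr4:126023441-126044975 (Csf3r), chr15:78325800-78351001 (Csf2rb), chr15:9506159-9529941 (Il7r) and chr5:109554709-109559128 (Crlf2), with Csf1r on chromosome 18, and all values are RNA levels summed over the exons of each gene.

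Each of these receptors sits at the cell surface, binds a secreted growth factor and passes a signal into the cell. FLT3, KIT and the receptor for macrophage colony-stimulating factor (encoded by Csf1r) carry their own tyrosine kinase, whereas the receptor for granulocyte colony-stimulating factor (Csf3r), the shared signalling chain for interleukin 3, interleukin 5 and GM-CSF (Csf2rb), the interleukin 7 receptor alpha chain (Il7r) and the receptor for thymic stromal lymphopoietin (Crlf2) borrow Janus kinases. Flt3 marks multipotent and lymphoid progenitors and is switched off when a cell commits to the B lineage, while Il7r is needed by pro-B cells and by early thymocytes, and Csf1r and Csf3r are best known from macrophages and granulocytes. Pax5 is the transcription factor that commits lymphoid progenitors to the B-cell lineage.

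RNA was sequenced from cells sorted directly from the bone marrow or thymus of C57BL/6 mice, in 48 samples that form 21 groups. The 25 samples of the first Pax5 set comprised 5 Pax5(+/+) pro-B samples and 2 samples of each of 10 mutant genotypes. A second set of 6 samples, the Prd experiment, had its own controls, and 17 further samples covered the T-lineage stages. Wild-type and mutant samples of the first set were sequenced with reads of 50 or 100 nucleotides. The study cut the longer reads to 50 bases before alignment, so read length marks how a library was sequenced, and other differences between those libraries cannot be told apart from it.

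In the genotype names D marks a deletion and a dash a null allele. Pax5(DOP/DOP) cells lacked the octapeptide motif, Pax5(DHD/DHD) cells the partial homeodomain, and Pax5(DOP,HD/DOP,HD) cells both. Pax5(DCRD1/DCRD1) and Pax5(DCRD1/-) cells lacked a C-terminal region (CRD1) that holds the transactivation domain defined earlier in reporter assays. Pax5(DCRD2/DCRD2) and Pax5(DCRD2/-) cells lacked the adjoining region (CRD2), a shortened form of the inhibitory domain from those assays. Pax5(DCRD1,2/DCRD1,2) and Pax5(DCRD1,2/-) cells lacked both regions. In the study each region contributed to gene activation and to gene repression. Vav-Cre Pax5(fl/fl) cells lost Pax5 altogether through a Cre recombinase that is active in haematopoietic stem cells and so in all blood lineages. The Prd experiment compared Vav-Cre Pax5(fl/+) pro-B cells, which keep 1 intact allele, with Vav-Cre Pax5(Prd/fl) progenitors, which keep only an allele for the DNA-binding paired domain, and with Vav-Cre Pax5(fl/fl) progenitors. Every sample of the Prd experiment carried Vav-Cre and at least 1 deleted allele, controls included. The T-lineage samples were bone marrow lymphoid-primed multipotent progenitors (LMPP, 2 samples), the thymic double-negative stages DN1, DN2a and DN2b (3 samples each), DN3a and DN3b (2 samples each), and DN3a cells of Rag2(-/-) mice (2 samples), which cannot rearrange their T-cell receptor genes. In each of DN1, DN2a and DN2b, 2 of the 3 samples share a replicate number in the labels and may be repeat libraries. All 3 were counted as separate samples. Ages and the identity of the animals were not in the labels, so p-values measure only the spread between these samples, which may be technical.

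Several of the receptors were used to sort the cells, and their levels are then set in part by the gate. KIT protein was required for pro-B cells, for the progenitors, for LMPP, DN1 and DN2a cells and, at an intermediate level, for DN2b cells. LMPP cells were also gated as positive for FLT3 and negative for IL7R. The gate of Vav-Cre Pax5(fl/fl) and Pax5(DCRD1,2/-) cells asked for high KIT and for B220 and differed from the pro-B gate in its other markers, so gate and genotype cannot be told apart there. Pax5(DCRD1,2/DCRD1,2) samples are labelled pro-B, and their gate was not given separately in the sources used here. The same holds for the Prd experiment, where Vav-Cre Pax5(Prd/fl) and Vav-Cre Pax5(fl/fl) cells carry the label of an alternative gate and the controls are labelled pro-B cells. In such bulk samples, fewer cells of a type and less RNA per cell cannot be told apart.

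The Pax5 samples held between 10018678 and 43784791 reads, recovered from the deposited values. Reads were plentiful for most receptors, with a median of 9341 reads per sample for Il7r, 4833 for Kit, 1940 for Crlf2, 1628 for Csf2rb and 1354 for Flt3, and few for Csf1r (174) and Csf3r (89). The summed level of 9 B-cell markers was 14605 to 18627 TPM (a level from reads scaled for gene length and library size) in Pax5(+/+) samples and 5073 to 5778 TPM in Vav-Cre Pax5(fl/fl) samples. Pax5 RNA itself was 342 to 524 TPM in Pax5(+/+) and 1609 to 1697 TPM in Vav-Cre Pax5(fl/fl) samples, and since that value includes exons outside the deleted part it does not check the label. Among the 25 samples of the first Pax5 set, 8 libraries stood apart by over 3000 TPM of 10 granulocyte markers, and the results they touch are given with and without them. In the T-lineage samples, 8 T-cell markers summed to 115 to 116 TPM in bone marrow LMPP and to 17774 to 18008 TPM in thymic DN3a samples.

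Flt3 and Il7r carried most of the changes across the Pax5 genotypes, and the 250 bases before the transcript start of each in the RefSeq promoter table are printed here because both genes are read against Pax5, a protein that binds DNA. The windows come from RefSeq on GRCm38.p6, read 5′ to 3′ on the strand of the gene, with capitals for matches on either strand to GGAA, the core of ETS factor sites, or to CANNTG, the E-box bound by factors such as E2A. The Flt3 window lies at chr5:147400490-147400739 and the Il7r window at chr15:9529877-9530126, both on the minus strand. The Il7r start in that table lies inside the outer boundary of the gene, so this window overlaps with the gene as placed above.
Flt3: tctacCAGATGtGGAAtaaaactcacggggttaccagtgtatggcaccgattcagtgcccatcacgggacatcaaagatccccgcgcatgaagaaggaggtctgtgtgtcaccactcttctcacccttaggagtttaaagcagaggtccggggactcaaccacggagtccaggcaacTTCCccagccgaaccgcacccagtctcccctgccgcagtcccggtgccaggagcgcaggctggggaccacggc
Il7r: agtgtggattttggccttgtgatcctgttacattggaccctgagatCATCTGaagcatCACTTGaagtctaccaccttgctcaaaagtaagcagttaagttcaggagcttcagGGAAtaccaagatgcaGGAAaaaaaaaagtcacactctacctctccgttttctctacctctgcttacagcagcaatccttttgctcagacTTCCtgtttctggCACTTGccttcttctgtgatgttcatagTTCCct
The Flt3 window held 1 E-box and 2 GGAA cores and had a GC content of 59.2%, against 3 E-boxes, 4 GGAA cores and 44.0% GC for Il7r. At least 1 E-box was present in 66.217% and at least 1 GGAA core in 93.446% of the 32851 promoter windows of this length, so neither motif is particular to these genes. GCGTGAC, a core of the Pax5 recognition sequence, was in 1.778% of all windows and in neither of these. The study shows Pax5 binding at a putative enhancer inside Flt3, outside the window printed here, and that enhancer was not searched.

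Across the 10 Pax5 genotypes, receptors were called mostly where CRD1 was lost, and Flt3 in all 5 genotypes without it. The share of all genes called was also higher there, at 9.63% to 37.1% against 0.114% to 1.78% in the other genotypes. Each genotype was compared with the Pax5(+/+) samples of its own read length, which are 2 at 100 nucleotides and 3 at 50 nucleotides, and all of these comparisons share those control samples. A receptor was called where limma gave an adjusted p below 0.05 over the 14000 genes tested, on log2(TPM + 0.1) values. Of the 70 pairs of receptor and genotype 15 were called, and in all of them the receptor was higher in the mutant. By edgeR on the recovered reads 18 pairs were called, all higher except Crlf2 in Vav-Cre Pax5(fl/fl) cells.

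Deletions in the central part of Pax5 left no receptor past the threshold. In Pax5(DOP/DOP) cells limma called 0 of 7 receptors against 1.02% of all genes, edgeR called 0, and 3 receptors had an unadjusted p below 0.05. In Pax5(DHD/DHD) cells 0 of 7 were called against 1% of all genes, with 0 by edgeR and 2 at an unadjusted p below 0.05. In Pax5(DOP,HD/DOP,HD) cells 0 of 7 were called against 1.78% of all genes, with 0 by edgeR and again 2 at an unadjusted p below 0.05. The intervals were wide for the lowly expressed receptors, with a log2 difference of 1.56 and a 95% interval from -0.02 to 3.15 for Csf1r in Pax5(DOP/DOP) cells, and narrower for Flt3, from -0.83 to -0.05 in the same cells.

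Loss of CRD2 alone was followed by little change. In Pax5(DCRD2/DCRD2) cells 0 of 7 receptors were called against 0.114% of all genes, with 0 by edgeR and 1 at an unadjusted p below 0.05. In Pax5(DCRD2/-) cells Il7r alone was called, 1 of 7 against 1.5% of all genes.

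Loss of CRD1 brought more receptors past the threshold. In Pax5(DCRD1/DCRD1) cells 2 of 7 were called (Flt3 and Kit), against 9.63% of all genes. In Pax5(DCRD1/-) cells 3 of 7 were called (Flt3, Kit and Il7r), against 12.4% of all genes. In Pax5(DCRD1,2/DCRD1,2) cells 4 of 7 were called (Flt3, Kit, Csf2rb and Il7r), against 26.3% of all genes. In Pax5(DCRD1,2/-) cells 2 of 7 were called (Flt3 and Il7r), against 25.9% of all genes, a share close to the background. Without Pax5, in Vav-Cre Pax5(fl/fl) progenitors, 3 of 7 were called (Flt3, Csf2rb and Il7r), against 37.1% of all genes in either direction and 19.6% in the higher direction. edgeR made the same number of calls as limma in Pax5(DCRD2/-), Pax5(DCRD1/-) and Pax5(DCRD1,2/DCRD1,2) cells, and 1 more each in Pax5(DCRD1/DCRD1) (Il7r), Pax5(DCRD1,2/-) (Csf2rb) and Vav-Cre Pax5(fl/fl) cells (Crlf2).

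The median log2 difference over the 7 receptors was 0.06 in Pax5(DCRD1/DCRD1), 0.35 in Pax5(DCRD1/-), 0.51 in Pax5(DCRD1,2/DCRD1,2), 0.32 in Pax5(DCRD1,2/-) and 0.80 in Vav-Cre Pax5(fl/fl) cells, while the median over all genes lay between -0.06 and 0.04 in every genotype. In the genotypes with few or no calls it was 0.46 in Pax5(DOP/DOP), 0.06 in Pax5(DHD/DHD), 0.18 in Pax5(DOP,HD/DOP,HD), 0.15 in Pax5(DCRD2/DCRD2) and 0.21 in Pax5(DCRD2/-) cells.

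**Figure D1:**
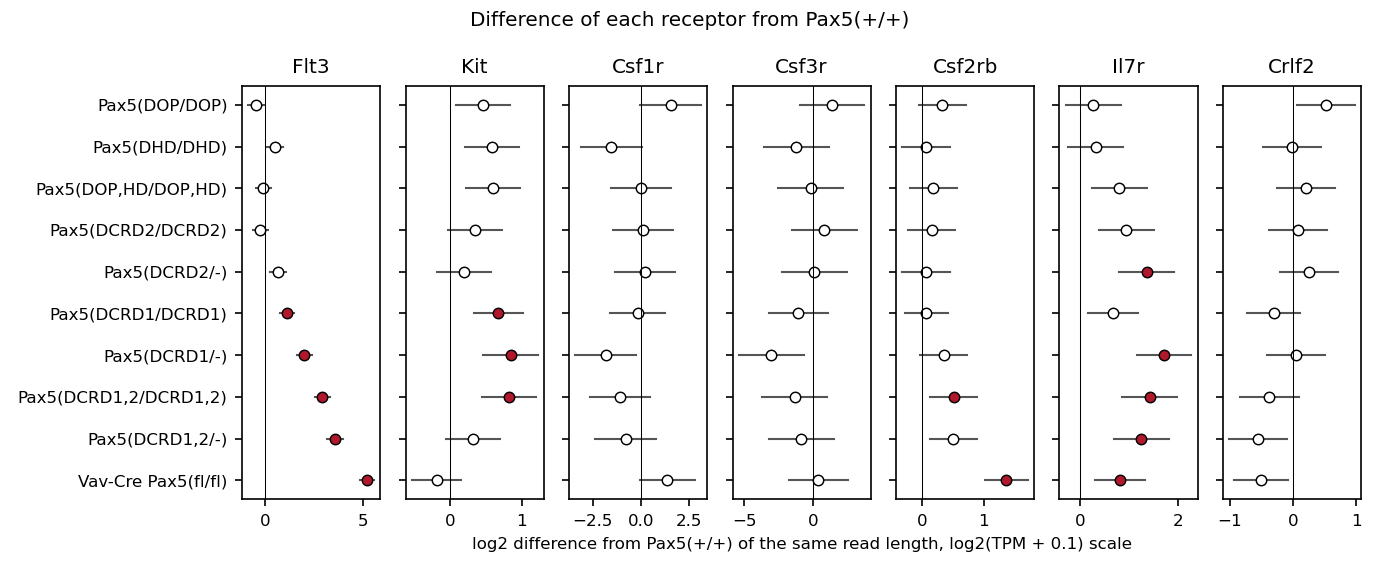
Log2 difference of each receptor between a Pax5 genotype and Pax5(+/+) samples of the same read length, with its 95% interval, on the log2(TPM + 0.1) scale. Filled red points passed an adjusted p of 0.05 in limma. The Flt3 differences climb from 1.15 in Pax5(DCRD1/DCRD1) to 5.20 in Vav-Cre Pax5(fl/fl) cells, while the Crlf2 differences lie between -0.55 and 0.52 and no Crlf2 point is filled.

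Among the receptor tyrosine kinases, Flt3, the receptor of FLT3 ligand on early progenitors, had the largest differences from Pax5(+/+) among those that passed the test. In Pax5(+/+) pro-B samples it was 11.7, 11.3, 15.7, 21.2 and 14.7 TPM (14.9 ± 4.00, SD, n = 5). In Pax5(DCRD1/DCRD1) cells it was 27.8 and 27.7 TPM, above every Pax5(+/+) sample. In Pax5(DCRD1/-) cells it was 77.8 and 69.8 TPM. Without both C-terminal regions it was higher still, at 134 and 147 TPM in Pax5(DCRD1,2/DCRD1,2) cells. In Pax5(DCRD1,2/-) cells it reached 250.4 and 188 TPM. Without Pax5, it was 499.5 and 428 TPM in Vav-Cre Pax5(fl/fl) progenitors, the highest values of this set. These last 4 groups did not overlap with each other or with the Pax5(+/+) samples.

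Against Pax5(+/+), Flt3 was 2.22-fold higher in Pax5(DCRD1/DCRD1) cells (log2 difference 1.15 ± 0.17, SE, limma adjusted p = 0.000252). It was 4.02-fold higher in Pax5(DCRD1/-) cells (2.01 ± 0.19, adjusted p = 9.18e-07) and 7.64-fold higher in Pax5(DCRD1,2/DCRD1,2) cells (2.93 ± 0.19, adjusted p = 5.43e-09). The rise was 11.8-fold in Pax5(DCRD1,2/-) cells (3.56 ± 0.19, adjusted p = 4.39e-10) and 36.8-fold in Vav-Cre Pax5(fl/fl) cells (5.20 ± 0.17, adjusted p = 3.33e-13). All 5 calls were kept in each of 36 alternative fits, including those that left out any single library.

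In the other genotypes Flt3 lay at or near the Pax5(+/+) level. It was 15.2 and 11.9 TPM in Pax5(DOP/DOP), 15.5 and 19.2 TPM in Pax5(DOP,HD/DOP,HD) and 16.1 and 15.1 TPM in Pax5(DCRD2/DCRD2) samples, all of which overlap with the Pax5(+/+) samples. It was 23.6 and 29.4 TPM in Pax5(DHD/DHD) and 31.6 and 26.9 TPM in Pax5(DCRD2/-) samples, above every Pax5(+/+) sample. Neither of these 2 differences passed the test, with log2 differences of 0.53 (adjusted p = 0.261) and 0.67 (adjusted p = 0.102).

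Markers used for other cells that carry Flt3 moved with it in part. The summed level of 7 plasmacytoid dendritic cell markers was 253 to 293 TPM in Pax5(+/+) and 750.4 to 1189 TPM in Vav-Cre Pax5(fl/fl) samples, but 187 to 188 TPM in Pax5(DCRD1/-), 221 to 231 TPM in Pax5(DCRD1,2/DCRD1,2) and 269 to 314 TPM in Pax5(DCRD1,2/-) samples. The summed level of 6 LMPP markers was 224 to 474 TPM in Pax5(+/+), 540.4 to 549 TPM in Pax5(DCRD1/DCRD1), 408 to 463 TPM in Pax5(DCRD1/-), 489.6 to 615 TPM in Pax5(DCRD1,2/DCRD1,2), 463 to 466 TPM in Pax5(DCRD1,2/-) and 548 to 602 TPM in Vav-Cre Pax5(fl/fl) samples. In the study, Ly6a, which encodes the Sca1 protein of the LMPP gate, was derepressed in pro-B cells without CRD1. Such a marker can therefore rise in pro-B cells themselves, and which cells gave the LMPP sums was not tested. The part of plasmacytoid dendritic cells or of LMPP in the Flt3 level was not tested either.

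**Figure D2:**
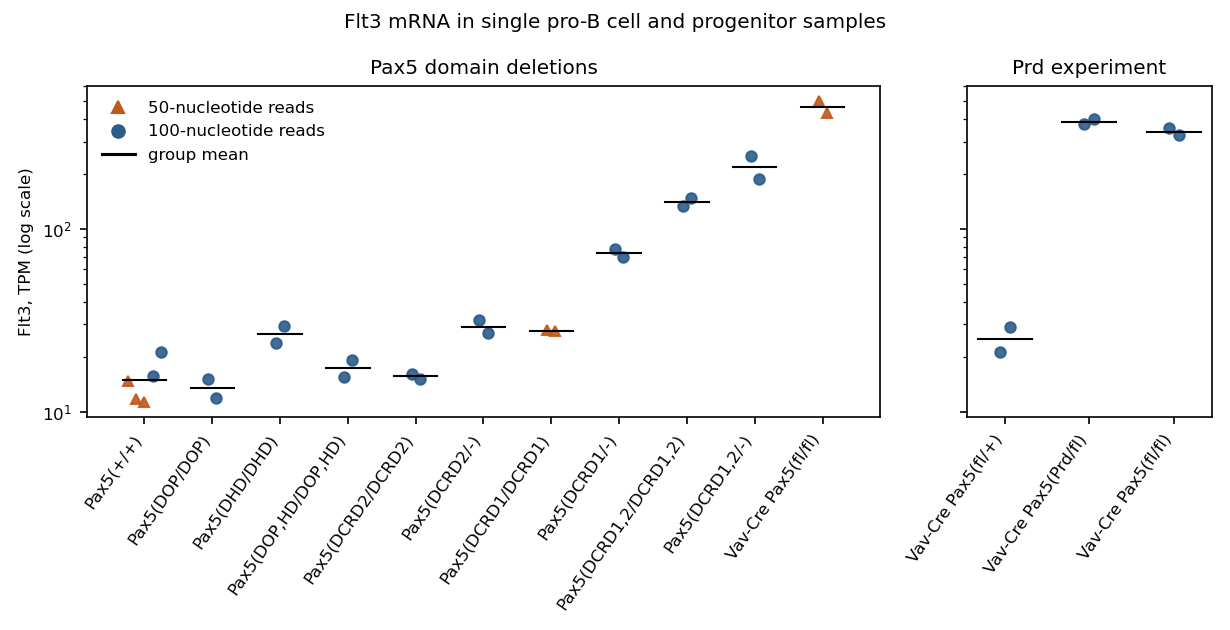
Flt3 level in TPM, on a log axis, for each sample of the Pax5 deletions on the left and of the Prd experiment on the right. Triangles mark libraries of 50 nucleotides and circles those of 100 nucleotides, and bars give group means. In the left panel the means run from 13.5 TPM in Pax5(DOP/DOP) to 464 TPM in Vav-Cre Pax5(fl/fl) samples. They are 14.9 TPM in Pax5(+/+), 140.4 TPM in Pax5(DCRD1,2/DCRD1,2) and 219 TPM in Pax5(DCRD1,2/-) samples.

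Kit, the receptor of stem cell factor and a marker of the sort, varied less. It was 75.1, 64.7, 56.6, 59.0 and 52.9 TPM in Pax5(+/+) samples. It was 111 and 92.8 TPM in Pax5(DCRD1/DCRD1), 98.6 and 109 TPM in Pax5(DCRD1/-), and 107 and 98.1 TPM in Pax5(DCRD1,2/DCRD1,2) samples, all above the Pax5(+/+) samples. These are the 3 genotypes in which Kit was called, at 1.59-fold (limma adjusted p = 0.0126), 1.79-fold (adjusted p = 0.00383) and 1.77-fold (adjusted p = 0.00223). The Pax5(DCRD1/DCRD1) call was lost without replicate 1 of that genotype (adjusted p = 0.205).

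The gate of Pax5(DCRD1,2/DCRD1,2) cells was not given separately, so the Kit calls cannot be sorted by gate. In Pax5(DCRD1,2/-) and Vav-Cre Pax5(fl/fl) cells, whose gate differed from the pro-B gate, Kit overlapped with Pax5(+/+) samples. It was 66.4 and 79.0 TPM in Pax5(DCRD1,2/-) and 61.1 and 51.3 TPM in Vav-Cre Pax5(fl/fl) samples, with log2 differences of 0.32 (adjusted p = 0.207) and -0.18 (adjusted p = 0.419). In the remaining genotypes Kit ranged from 56.8 TPM in a Pax5(DCRD2/-) sample to 91.1 TPM in a Pax5(DHD/DHD) sample. Since all of these cells were sorted for KIT protein, these RNA levels describe cells inside a KIT gate.

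Csf1r, the receptor of macrophage colony-stimulating factor and interleukin 34, was low and uneven between replicates. It was 2.91, 2.72, 5.22, 7.24 and 4.48 TPM in Pax5(+/+) samples. Pax5(DOP/DOP) samples, at 18.3 and 18.4 TPM, lay above all Pax5(+/+) samples, and Pax5(DCRD1/-) samples, at 1.45 and 1.87 TPM, below them. Neither difference passed the test, with log2 differences of 1.56 ± 0.75 (adjusted p = 0.297) and -1.84 ± 0.75 (adjusted p = 0.133). In 4 genotypes the replicates themselves lay far apart, at 2.95 and 12.8 TPM in Pax5(DOP,HD/DOP,HD), 16.0 and 2.71 TPM in Pax5(DCRD2/DCRD2), 14.5 and 3.46 TPM in Pax5(DCRD2/-) and 13.5 and 5.66 TPM in Vav-Cre Pax5(fl/fl) samples.

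Csf3r, the receptor of granulocyte colony-stimulating factor, went with Csf1r in this unevenness. It was 2.15, 2.82, 1.43, 5.62 and 3.55 TPM in Pax5(+/+) samples and 7.40 and 8.13 TPM in Pax5(DOP/DOP) samples. The replicates lay apart at 0.821 and 7.46 TPM in Pax5(DOP,HD/DOP,HD), 19.6 and 1.35 TPM in Pax5(DCRD2/DCRD2), 5.61 and 1.67 TPM in Pax5(DCRD2/-) and 7.99 and 1.68 TPM in Vav-Cre Pax5(fl/fl) samples. The lowest values were 0.128 and 0.471 TPM in Pax5(DCRD1/-) samples, which rest on 7 and 26 reads. No genotype was called for Csf3r, and its widest difference was -3.04 ± 1.12 on the log2 scale in Pax5(DCRD1/-) cells (adjusted p = 0.0933).

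Granulocyte markers moved with both receptors between replicates. The summed level of Mpo, Elane, Prtn3, Ctsg, S100a8, S100a9, Ltf, Ngp, Camp and Lcn2 was 1064, 846, 888, 7022 and 3694 TPM in Pax5(+/+) samples. In the genotypes with uneven replicates it was 641 and 6926 TPM in Pax5(DOP,HD/DOP,HD), 10038 and 619 TPM in Pax5(DCRD2/DCRD2), 16899 and 1116 TPM in Pax5(DCRD2/-) and 4889.7 and 584 TPM in Vav-Cre Pax5(fl/fl) samples. It was 7663 and 7988 TPM in the Pax5(DOP/DOP) samples and 174 and 379.5 TPM in the Pax5(DCRD1/-) samples. In all 4 genotypes with uneven replicates the sample with more Csf1r and Csf3r also had more granulocyte markers, and the sums of 10 macrophage markers, 109 to 950.0 TPM over the 25 samples, were higher in the same libraries. The part of such cells in the 2 receptor levels was not tested.

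**Figure D3:**
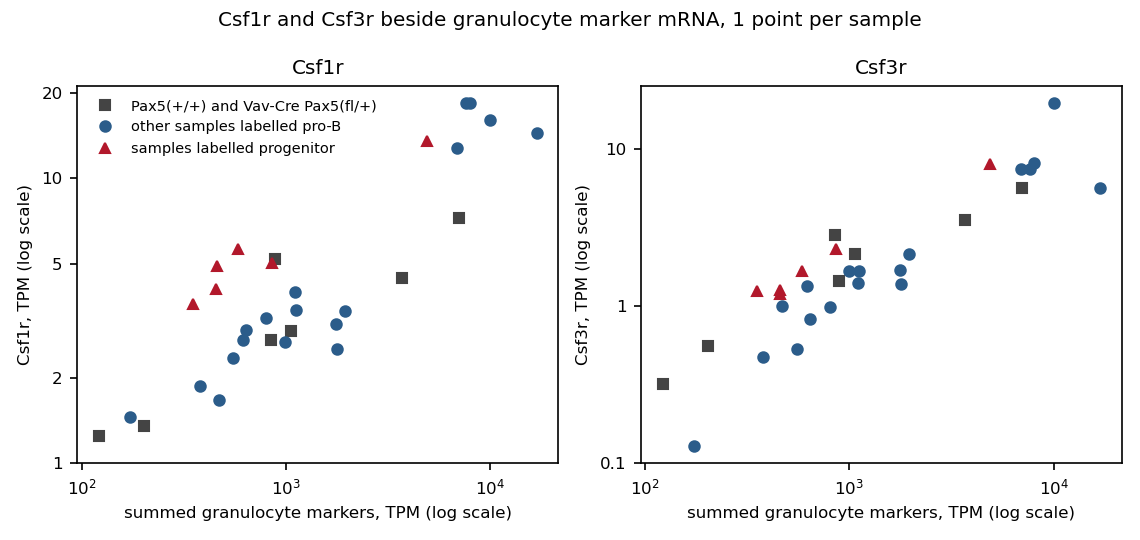
Csf1r and Csf3r levels in TPM against the summed level of 10 granulocyte markers in TPM, both on log axes, for the 31 samples of the Pax5 experiments. Squares are Pax5(+/+) and Vav-Cre Pax5(fl/+) samples, circles the other samples labelled pro-B and triangles the samples labelled progenitor. Csf3r climbs with the markers from 0.128 TPM at 174 TPM of markers to 19.6 TPM at 10038 TPM but is 5.61 TPM at the highest sum of 16899 TPM, and Csf1r climbs less steeply.

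Leaving out the 8 libraries with over 3000 TPM of granulocyte markers, a choice made after seeing the data, removed the Pax5(DOP/DOP) group and left 13560 genes tested. The number of calls against Pax5(+/+) was then 18 over the 9 genotypes left, against 15 with all libraries. In this fit Pax5(+/+) replicate 3 was the only control of 100 nucleotides. Against it, Csf1r was called lower in Pax5(DCRD1/-) cells (log2 difference -1.60). Il7r was then called higher in Pax5(DOP,HD/DOP,HD) (1.15), Pax5(DCRD2/DCRD2) (1.12) and Pax5(DCRD1/DCRD1) cells (0.42, adjusted p = 0.0232). In Pax5(DOP,HD/DOP,HD) and Pax5(DCRD2/DCRD2) cells this set a single library against Pax5(+/+) replicate 3, the control with the lowest Il7r level (91.1 TPM). The Csf2rb call in Pax5(DCRD1,2/DCRD1,2) cells was lost (adjusted p = 0.17). All Flt3 calls against Pax5(+/+) were kept.

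Csf2rb, the shared beta chain, was even across the genotypes that keep Pax5 and high without it. It was 20.3, 32.1, 22.8, 21.1 and 24.4 TPM in Pax5(+/+) samples. It was 68.2 and 61.9 TPM in Vav-Cre Pax5(fl/fl) samples, which lay above all other samples and differed 2.58-fold from Pax5(+/+) (log2 difference 1.37 ± 0.17, limma adjusted p = 4.32e-06). Pax5(DCRD1,2/DCRD1,2) samples, at 31.4 and 31.3 TPM, overlapped with Pax5(+/+) samples as a whole but lay above the 2 of the same read length, and their 1.42-fold difference passed only narrowly (adjusted p = 0.0477). That call was lost in 25 of 36 alternative fits, among them those without Pax5(+/+) replicate 3 (adjusted p = 0.101), without Pax5(+/+) replicate 4 (adjusted p = 0.161) and without either sample of the genotype (adjusted p = 0.155 and 0.15), and 14 that left out another library (0.0501 to 0.0591). Pax5(DCRD1,2/-) samples, at 32.3 and 30.0 TPM, had nearly the same mean and did not pass in limma (adjusted p = 0.0515) but did in edgeR (adjusted p = 0.0252). Plasmacytoid dendritic cell markers, at 750.4 to 1189 TPM in Vav-Cre Pax5(fl/fl) against 253 to 293 TPM in Pax5(+/+) samples, moved with Csf2rb, and their part in its level was not tested. Csf2rb has a close copy in the genome, Csf2rb2, and reads may be split between the 2 genes, so both levels are uncertain.

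Il7r, which pairs with the common gamma chain to bind interleukin 7, was called in 4 of the 5 genotypes without CRD1 and also differed between the read lengths of the control. It was 247, 242 and 145 TPM in the Pax5(+/+) samples of 50 nucleotides (mean 211) and 91.1 and 135 TPM in those of 100 nucleotides (mean 113). At 100 nucleotides it was 374 and 355 TPM in Pax5(DCRD1/-), 325 and 272 TPM in Pax5(DCRD1,2/DCRD1,2) and 270.3 and 256 TPM in Pax5(DCRD1,2/-) samples. These 6 samples lay above every Pax5(+/+) sample, and the differences were 3.28-fold (log2 1.72 ± 0.27, adjusted p = 0.000252), 2.68-fold (1.42 ± 0.27, adjusted p = 0.000704) and 2.37-fold (1.25 ± 0.27, adjusted p = 0.0021).

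The other Il7r differences rested more on single libraries. Pax5(DCRD2/-) samples, at 267 and 306 TPM, were 2.58-fold above Pax5(+/+) (1.36 ± 0.27, adjusted p = 0.0127), a call lost without Pax5(+/+) replicate 3 (adjusted p = 0.237) or without either sample of the genotype (adjusted p = 0.0561 and 0.137). At 50 nucleotides Vav-Cre Pax5(fl/fl) samples were at 261 and 493 TPM, 1.75-fold above their controls (0.80 ± 0.24, adjusted p = 0.015), and that call was lost without Vav-Cre Pax5(fl/fl) replicate 2 (adjusted p = 0.342) or Pax5(+/+) replicate 5 (adjusted p = 0.0674). Pax5(DCRD1/DCRD1) samples, at 307 and 349.8 TPM, lay above all 5 Pax5(+/+) samples, yet their 1.60-fold difference did not pass in limma (0.68 ± 0.24, adjusted p = 0.0982), while it did in edgeR (adjusted p = 0.0191). The Il7r differences also rest on the control of the same read length. Without any term for read length, the log2 differences were 0.83 in Pax5(DCRD2/-) (adjusted p = 0.194) and 0.71 in Pax5(DCRD1,2/-) cells (adjusted p = 0.06), where the call was lost, and 0.89 in Pax5(DCRD1,2/DCRD1,2) (adjusted p = 0.0225) and 1.18 in Pax5(DCRD1/-) cells (adjusted p = 0.00724).

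In the genotypes without a call Il7r was 151 and 117 TPM in Pax5(DOP/DOP), 139 and 137 TPM in Pax5(DHD/DHD), 202 and 183 TPM in Pax5(DOP,HD/DOP,HD) and 229 and 198 TPM in Pax5(DCRD2/DCRD2) samples. All of these overlapped with the range of the 5 Pax5(+/+) samples. Against the 2 Pax5(+/+) samples of their own read length, the Pax5(DHD/DHD), Pax5(DCRD2/DCRD2) and Pax5(DOP,HD/DOP,HD) samples lay above both, with 1.22-, 1.89- and 1.70-fold higher means, while Pax5(DOP/DOP) samples overlapped.

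Crlf2, which pairs with the IL7R chain to bind thymic stromal lymphopoietin, did not follow Il7r. It was 119, 185 and 131 TPM in the Pax5(+/+) samples of 50 nucleotides and 82.8 and 91.1 TPM in those of 100 nucleotides. Crlf2 in the controls thus did not overlap between the read lengths. The lowest samples were those without both C-terminal regions, at 70.1 and 64.1 TPM in Pax5(DCRD1,2/DCRD1,2) and 52.2 and 67.6 TPM in Pax5(DCRD1,2/-) cells, below every Pax5(+/+) sample. Neither passed the test, with log2 differences of -0.37 (adjusted p = 0.228) and -0.55 (adjusted p = 0.0754). Vav-Cre Pax5(fl/fl) samples, at 95.0 and 106 TPM, overlapped with the range of all 5 controls but lay below those of their own read length. The difference within that read length was -0.51 (limma adjusted p = 0.0552). limma called Crlf2 in none of the 10 genotypes, whereas edgeR called it lower in Vav-Cre Pax5(fl/fl) cells (-0.55, adjusted p = 0.0264), and its samples in the other 7 genotypes ranged from 76.3 to 138 TPM.

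**Figure D4:**
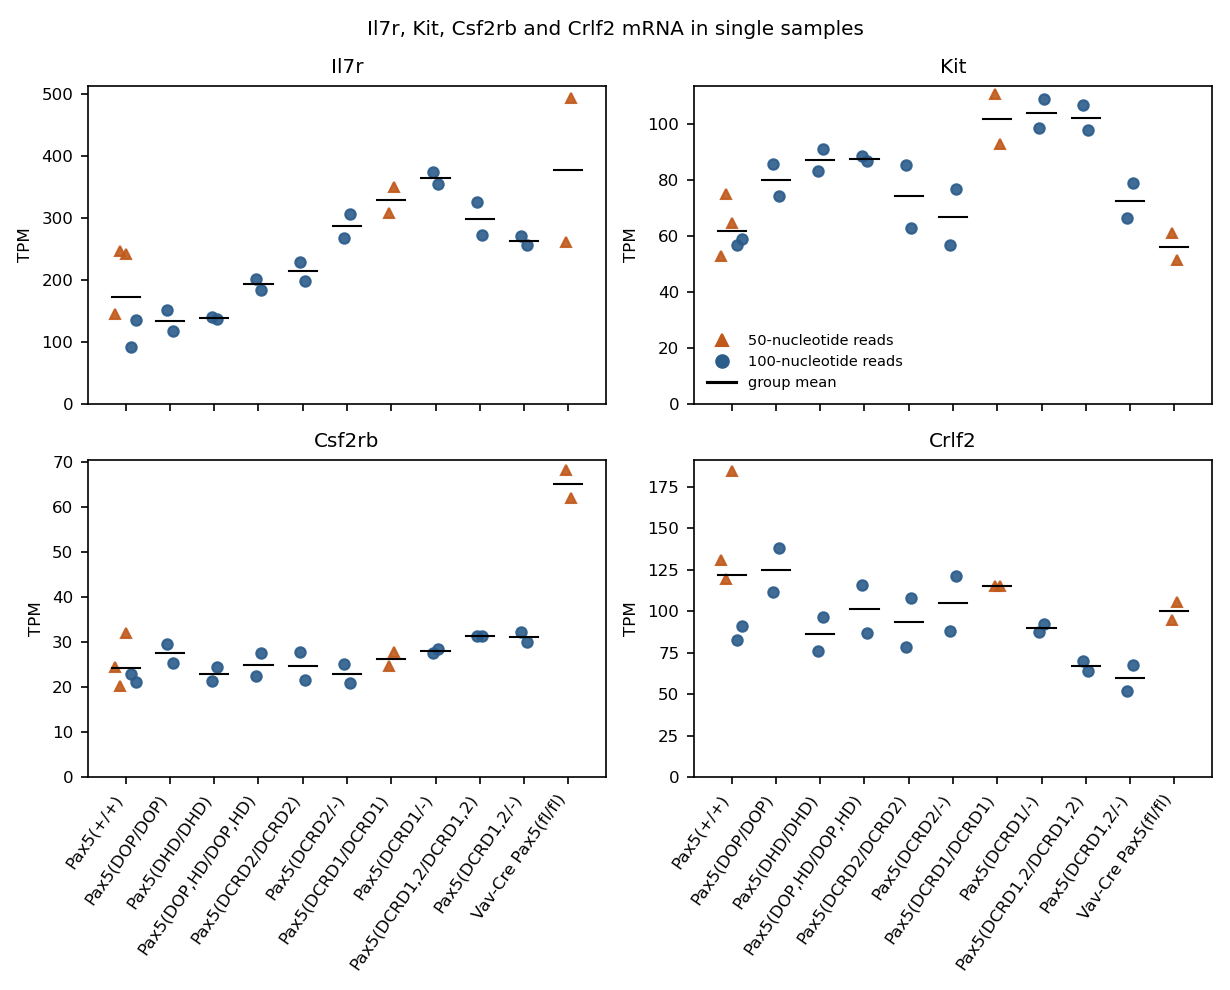
Levels of Il7r, Kit, Csf2rb and Crlf2 in TPM, on linear axes from 0, for each sample of the first Pax5 set. Triangles mark libraries of 50 nucleotides, circles those of 100 nucleotides, and bars group means. Csf2rb is set apart only in Vav-Cre Pax5(fl/fl) samples, at 68.2 and 61.9 TPM, and Il7r in Pax5(+/+) samples is higher at 50 than at 100 nucleotides.

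The mutants were next compared with each other, to ask what each further loss of Pax5 sequence did to the receptors. Flt3 was the receptor that differed in most of these contrasts. Loss of CRD2 on top of CRD1 in hemizygous cells, Pax5(DCRD1,2/-) against Pax5(DCRD1/-), gave a 2.94-fold higher Flt3 level (log2 difference 1.56 ± 0.19, limma adjusted p = 6.69e-05). It was the only receptor called of 7, against 4.92% of all genes, while Il7r (-0.47, adjusted p = 0.373), Kit (-0.52, adjusted p = 0.114) and Crlf2 (-0.59, adjusted p = 0.139) did not pass. The difference in gate between these 2 genotypes cannot be told apart from that in Pax5.

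In homozygous cells the same step, Pax5(DCRD1,2/DCRD1,2) against Pax5(DCRD1/DCRD1), gave a 3.45-fold higher Flt3 level (1.79 ± 0.25, adjusted p = 0.000805), again the only call of 7 against 2.65% of all genes. Because those 2 genotypes were sequenced at different read lengths, this value rests on the fitted effect of read length. The hemizygous and the homozygous step were then set against each other, and their Flt3 difference was 0.23 ± 0.31 with a 95% interval from -0.43 to 0.90 (adjusted p = 0.85). In this interaction limma called 0 of 7 receptors against 0.0286% of all genes, edgeR called 0 and 2 receptors had an unadjusted p below 0.05. Without the 8 granulocyte-rich libraries limma called Il7r (1.75, adjusted p = 0.0139).

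The last step, from a Pax5 without its C terminus to no Pax5, was Vav-Cre Pax5(fl/fl) against Pax5(DCRD1,2/-). Flt3 was 3.12-fold higher (log2 difference 1.64 ± 0.25, adjusted p = 0.000961), the only call of 7 against 5.23% of all genes. Csf2rb differed by 0.86 on the log2 scale and did not pass (adjusted p = 0.0515). This contrast too crosses the read lengths.

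Carrying 1 in place of 2 copies of a shortened Pax5 brought few receptors past the threshold. Flt3 was 1.86-fold higher in Pax5(DCRD2/-) than in Pax5(DCRD2/DCRD2) cells (0.90 ± 0.19, adjusted p = 0.0434), the only call of 7 against 0.443% of all genes, and that call was lost in 23 of 36 alternative fits. Those included the fits without either Pax5(DCRD2/-) sample (adjusted p = 0.302 and 0.137) or either Pax5(DCRD2/DCRD2) sample (0.179 and 0.0728), and 12 that left out a library of another genotype (0.0509 to 0.0686). Between Pax5(DCRD1/-) and Pax5(DCRD1/DCRD1) cells 0 of 7 were called against 0.0786% of all genes, with 0 by edgeR and 2 at an unadjusted p below 0.05. The Flt3 difference there was 0.86 ± 0.25 (95% interval 0.32 to 1.39, adjusted p = 0.38) and crosses the read lengths. Between Pax5(DCRD1,2/-) and Pax5(DCRD1,2/DCRD1,2) cells 0 of 7 were called against 0.236% of all genes, with 0 by edgeR and 2 at an unadjusted p below 0.05, and the Flt3 difference was 0.63 ± 0.19 (0.23 to 1.02, adjusted p = 0.319).

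Between the 2 central deletions, Pax5(DOP/DOP) and Pax5(DHD/DHD), 2 of 7 receptors were called against 4.49% of all genes. Flt3 was lower without the octapeptide, at 0.512 of the level without the homeodomain (-0.97 ± 0.19, adjusted p = 0.00568), a call lost without Pax5(DHD/DHD) replicate 2 (adjusted p = 0.0869) or Pax5(DOP/DOP) replicate 2 (adjusted p = 0.105). Csf1r was 8.58-fold higher without the octapeptide (3.10 ± 0.75, adjusted p = 0.0238), a call lost without any of the 4 samples (adjusted p from 0.0869 to 0.156). The Csf1r levels were 18.3 and 18.4 TPM against 1.66 and 2.53 TPM, beside granulocyte marker sums of 7663 and 7988 TPM against 469.7 and 1790.2 TPM. Basophil and mast cell markers, a list of 6, summed to 277 to 364 TPM against 3.48 to 21.4 TPM in the same samples.

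Without the 8 granulocyte-rich libraries, 6 contrasts between mutants kept samples in both groups and gave 7 calls, against 4 with all libraries. Il7r was then called in Pax5(DCRD1,2/-) against Pax5(DCRD1/-) (-0.47, adjusted p = 0.0298), Pax5(DCRD1,2/DCRD1,2) against Pax5(DCRD1/DCRD1) (1.28, adjusted p = 0.0086) and Pax5(DCRD1/-) against Pax5(DCRD1/DCRD1) (1.57, adjusted p = 0.0108). Flt3 was then called in Pax5(DCRD1/-) against Pax5(DCRD1/DCRD1) (0.96, adjusted p = 0.0441). It was no longer called in Pax5(DCRD2/-) against Pax5(DCRD2/DCRD2), where a single library was left in each group (0.83). In these fits Pax5(+/+) at 100 nucleotides is replicate 3 alone, the sample with the lowest Il7r level (91.1 TPM), on which the Il7r values that cross the read lengths rest.

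The Prd experiment asked what a Pax5 reduced to its paired domain can do, and here 6 of 7 receptors were called in both comparisons with the control. In Vav-Cre Pax5(fl/fl) against Vav-Cre Pax5(fl/+) cells, 39.9% of the 12941 genes tested were called, 20.8% in the higher direction. In Vav-Cre Pax5(Prd/fl) against Vav-Cre Pax5(fl/+) cells it was 40.7%, with 24.1% in the higher direction. Flt3, Csf1r, Csf3r, Csf2rb and Il7r were higher and Crlf2 lower in both, while Kit did not pass. Both comparisons share the 2 control samples and the difference of gate. The median difference of the 7 receptors was 0.98 in Vav-Cre Pax5(fl/fl) and 1.16 in Vav-Cre Pax5(Prd/fl) cells, against 0.00 and 0.08 over all genes.

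Flt3 was 21.1 and 28.9 TPM in the Vav-Cre Pax5(fl/+) controls, 375 and 397 TPM in Vav-Cre Pax5(Prd/fl) and 355 and 326 TPM in Vav-Cre Pax5(fl/fl) cells. It was thus 15.5-fold higher with only the paired domain (log2 difference 3.96 ± 0.15, limma adjusted p = 2.52e-05) and 13.7-fold higher without Pax5 (3.78 ± 0.15, adjusted p = 2.41e-05). Plasmacytoid dendritic cell markers were 256 to 257 TPM in the controls, 444 to 507 TPM in Vav-Cre Pax5(Prd/fl) and 442 to 547 TPM in Vav-Cre Pax5(fl/fl) cells, and their part in the Flt3 level was not tested. The 9 B-cell markers fell from 14508 to 14662 TPM in the controls to 7299 to 7825 and 5551 to 5895 TPM.

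Il7r was 156 and 138 TPM in the controls, 366 and 295 TPM in Vav-Cre Pax5(Prd/fl) and 184 and 241 TPM in Vav-Cre Pax5(fl/fl) cells. It was 2.24-fold higher with the paired domain alone (1.16 ± 0.16, adjusted p = 0.00203) and 1.44-fold higher without Pax5 (0.52 ± 0.16, adjusted p = 0.0406), and the latter call was lost in 5 of 13 alternative fits, among them those without control replicate 1 (adjusted p = 0.11), control replicate 2 (adjusted p = 0.229) and Vav-Cre Pax5(fl/fl) replicate 2 (adjusted p = 0.205). The 3 groups did not overlap.

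Csf2rb was 22.5 and 23.1 TPM in the controls, 40.7 and 40.5 TPM in Vav-Cre Pax5(Prd/fl) and 44.5 and 45.4 TPM in Vav-Cre Pax5(fl/fl) cells. The groups did not overlap, and the rises were 1.78-fold (0.83 ± 0.08, adjusted p = 0.00054) and 1.97-fold (0.98 ± 0.08, adjusted p = 0.000302). They went with the plasmacytoid dendritic cell markers given above, whose part was not tested. Crlf2 was 180.1 and 196 TPM in the controls, 141 and 122 TPM in Vav-Cre Pax5(Prd/fl) and 125 and 122 TPM in Vav-Cre Pax5(fl/fl) cells. It fell by 0.52 (adjusted p = 0.00593) and 0.60 (adjusted p = 0.00324) on the log2 scale, and the first call was lost without control replicate 2 (adjusted p = 0.0699).

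Csf1r was 1.25 and 1.35 TPM in the controls, 3.63 and 4.08 TPM in Vav-Cre Pax5(Prd/fl) and 5.05 and 4.93 TPM in Vav-Cre Pax5(fl/fl) cells. The rises were 2.82-fold (1.49 ± 0.20, adjusted p = 0.00174) and 3.63-fold (1.86 ± 0.20, adjusted p = 0.000768). Csf3r was 0.320 and 0.553 TPM in the controls, 1.25 and 1.26 TPM in Vav-Cre Pax5(Prd/fl) and 2.30 and 1.20 TPM in Vav-Cre Pax5(fl/fl) cells. Its rises of 2.58-fold (adjusted p = 0.0454) and 3.36-fold (adjusted p = 0.0199) were lost in 9 and 2 of 13 alternative fits. The first was lost without either control (adjusted p = 0.199 and 0.0778), either Vav-Cre Pax5(Prd/fl) sample (0.0979 and 0.0928) or Vav-Cre Pax5(fl/fl) replicate 1 (0.0535), and the second without control replicate 1 (0.111) or Vav-Cre Pax5(fl/fl) replicate 1 (0.118). Granulocyte markers moved with both receptors, at 122 and 202.5 TPM in the controls, 353 and 456 TPM in Vav-Cre Pax5(Prd/fl) and 859.9 and 459 TPM in Vav-Cre Pax5(fl/fl) cells, whereas macrophage markers overlapped between all 3 groups, at 76.6 to 117 TPM.

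Kit was 31.0 and 36.2 TPM in the controls, 61.7 and 41.3 TPM in Vav-Cre Pax5(Prd/fl) and 46.0 and 55.5 TPM in Vav-Cre Pax5(fl/fl) cells. All 4 progenitor samples lay above the controls, with a log2 difference of 0.59 in each comparison (adjusted p = 0.0577 and 0.058), in cells whose gate differed from that of the controls.

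Between the 2 progenitor genotypes of the Prd experiment no receptor was called. limma called 0 of 7 in Vav-Cre Pax5(Prd/fl) against Vav-Cre Pax5(fl/fl) cells, against 1.97% of all genes, and 1 receptor had an unadjusted p below 0.05. That receptor was Il7r, higher with the paired domain by 0.64 (95% interval 0.25 to 1.02, adjusted p = 0.115). The Flt3 difference was 0.18 (-0.17 to 0.54, adjusted p = 0.523), the Csf2rb difference -0.15 (-0.34 to 0.05, adjusted p = 0.378) and the Csf1r difference -0.37 (-0.84 to 0.11, adjusted p = 0.362). edgeR was not run on this set.

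Along the T lineage, the receptors were followed from LMPP to DN3b cells, in files aligned and normalized apart from the Pax5 set, so that levels were tested only among these 17 samples. Flt3, Csf1r, Csf3r and Csf2rb fell to near 0, Kit and Crlf2 fell in smaller steps, and Il7r rose. Each sample carries a number of its own in the labels. Those of LMPP to DN2b samples run together, and those of DN3a, DN3b and Rag2(-/-) DN3a samples lie apart from them and from each other, so comparisons between these blocks may also cross runs. The median over all genes moved by -0.05, -0.18, 0.08, 0.27 and -0.41 on the log2 scale in the 5 steps in order, and by -0.18 in Rag2(-/-) against wild-type DN3a cells.

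Flt3 was 697 and 679.8 TPM in LMPP, cells gated for it, and 187, 173 and 170.2 TPM in DN1 samples. It dropped to 4.28, 5.07 and 1.93 TPM in DN2a and 1.30, 0.649 and 1.73 TPM in DN2b samples. In DN3a samples it was 0.116 and 0.139 TPM, and in DN3b samples it was entered as exactly 1 in both rows and read here as 0. The stages did not overlap with each other, and the widest step was DN1 to DN2a, where the log2 difference was -5.62 ± 0.34 (limma adjusted p = 7.75e-08), or -5.45 relative to the median gene.

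Csf3r was 136 and 146 TPM in LMPP and 9.91, 8.78 and 9.84 TPM in DN1 samples, a log2 difference of -3.87 ± 0.27 (adjusted p = 1.91e-07). It was 1.59, 1.70 and 1.78 TPM in DN2a and at most 0.198 TPM in DN2b and later samples. Csf1r took another course and was highest at DN1, with 24.0 and 24.3 TPM in LMPP and 79.9, 74.2 and 73.8 TPM in DN1 samples, a difference of 1.65 ± 0.42 (adjusted p = 0.0124) whose call was lost without either LMPP sample (adjusted p = 0.0877 and 0.0733), with a pseudocount of 0.01 (adjusted p = 0.0912) or with entries of exactly 1 kept as 1 (adjusted p = 0.125). It then fell by 4.69 (SE 0.37, adjusted p = 9.61e-07) to 3.14, 2.76 and 2.65 TPM in DN2a samples. Granulocyte markers were 2145 to 2404 TPM in LMPP, 1799 to 2052 TPM in DN1 and 468 to 509 TPM in DN2a samples, and macrophage markers 283 to 441, 101 to 117 and 45.1 to 66.4 TPM, and their part in both receptor levels was not tested.

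Csf2rb was 28.8 and 31.5 TPM in LMPP and 22.8, 18.6 and 19.5 TPM in DN1 samples, a difference that did not pass (-0.57, adjusted p = 0.257). It then fell by 2.97 (SE 0.28, adjusted p = 4.45e-06) to 2.57, 1.85 and 3.23 TPM in DN2a and fell by 2.39 (SE 0.28, adjusted p = 4.17e-05) to 0.439, 0.381 and 0.366 TPM in DN2b samples. DN3a and DN3b samples held at most 0.0767 TPM.

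Kit was 308 and 344 TPM in LMPP and 333, 288 and 335 TPM in DN1 samples, which overlapped. It was 216, 252 and 283 TPM in DN2a and 99.0, 83.7 and 91.3 TPM in DN2b samples, and these levels go with the gates for high and intermediate KIT. Outside any KIT gate it went on falling, to 36.4 and 37.0 TPM in DN3a and 13.0 and 10.4 TPM in DN3b samples, by 1.31 (SE 0.14, adjusted p = 7.78e-06) and 1.65 (SE 0.15, adjusted p = 1.13e-06). Relative to the median gene the last 2 steps were -1.58 and -1.24. The fall from DN1 to DN2a was small (-0.36, adjusted p = 0.0414) and was lost in 8 of 27 alternative fits, among them those without either DN2a sample numbered 1 (adjusted p = 0.176 and 0.0884), DN1 replicate 1 (0.129), a DN1 sample numbered 2 (0.113) or either DN3a sample (0.0535 and 0.0533).

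Il7r was 4.11 and 3.93 TPM in LMPP, gated as negative for its protein, and 12.1, 9.01 and 12.7 TPM in DN1 samples. It rose by 2.23 on the log2 scale (SE 0.13, adjusted p = 6.89e-08) to 53.1, 51.9 and 53.5 TPM in DN2a samples, the widest step of Il7r. It was 63.5, 64.4 and 59.0 TPM in DN2b and 81.0 and 84.3 TPM in DN3a samples. The difference between these 2 stages passed (0.41, adjusted p = 0.0366), but was 0.14 relative to the median gene and was lost in 6 of 27 alternative fits, by quantile normalization (adjusted p = 0.459) and without any of the 5 samples of both stages (0.0522 to 0.154). From DN3a to DN3b, across beta-selection, it fell by 1.39 (SE 0.16, adjusted p = 8.81e-06) to 35.8 and 27.6 TPM.

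Crlf2 went the other way from Il7r in the first 2 steps. It was 234 and 261 TPM in LMPP, 147, 146 and 159.7 TPM in DN1 and 82.6, 80.0 and 93.8 TPM in DN2a samples, which did not overlap, and fell by 0.71 (adjusted p = 0.00226) and 0.82 (adjusted p = 0.000278). It was 107, 89.2 and 100.3 TPM in DN2b, 78.9 and 64.6 TPM in DN3a and 38.3 and 28.3 TPM in DN3b samples. From DN2b to DN3a it fell by 0.46 (adjusted p = 0.0154), a call lost without DN3a replicate 2 (adjusted p = 0.172). From DN3a to DN3b the difference was -1.11 ± 0.15 (adjusted p = 3.96e-05), or -0.71 relative to the median gene.

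**Figure D5:**
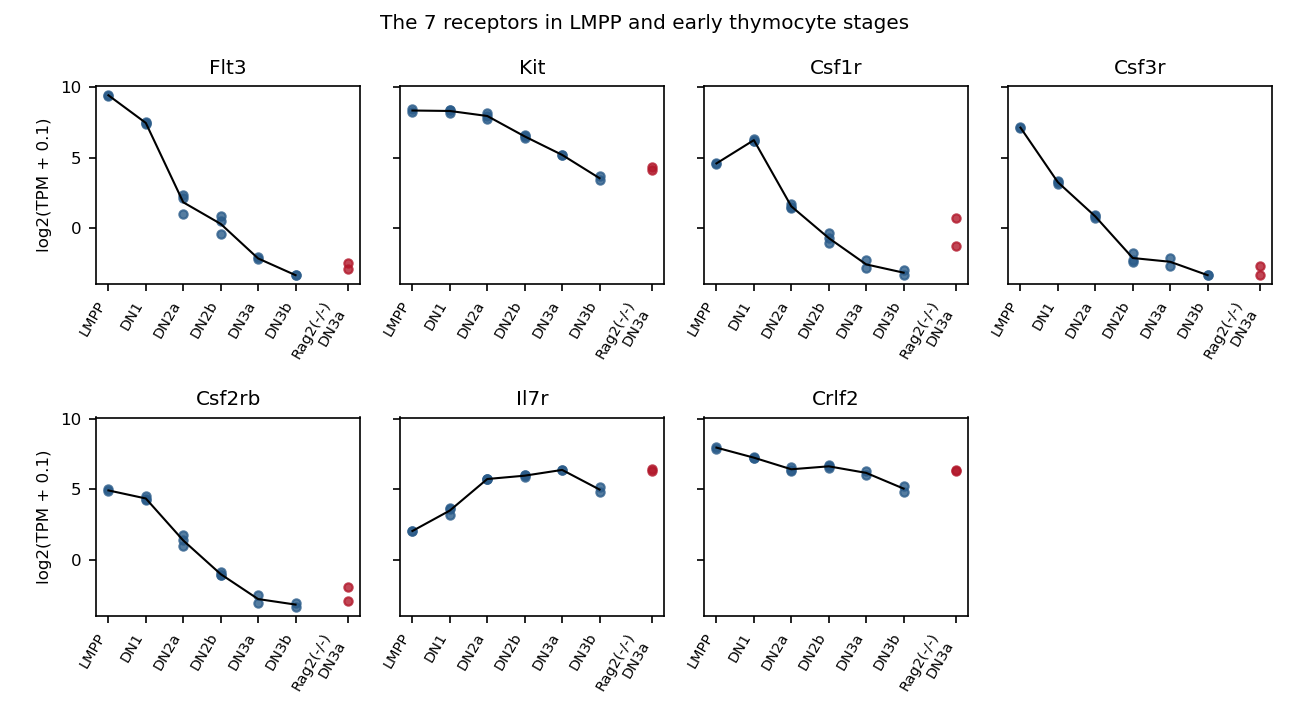
Level of each receptor as log2(TPM + 0.1) in the T-lineage samples, with a point for each sample, a line through the stage means from LMPP to DN3b and Rag2(-/-) DN3a samples in red. Il7r climbs up to DN3a while the other 6 receptors end lower than they begin, and Csf1r peaks at DN1.

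Counted over the steps, 5 of 7 receptors were called from LMPP to DN1 against 18.6% of all genes, and 7 of 7 from DN1 to DN2a against 33.7% of all genes in either direction and 22.9% in the lower direction. From DN2a to DN2b 5 of 7 were called, all lower, against 18.2% and 8.43% of all genes. From DN2b to DN3a 6 of 7 were called against 45.8%, and from DN3a to DN3b 5 of 7, all lower, against 53.4% of all genes. The Flt3 and Csf3r calls in that last step set samples read as 0 against levels of at most 0.139 TPM and have no fold. The Flt3 call was lost without any of the 4 samples (adjusted p = 0.0749 to 0.112), and the Csf3r call without DN3a replicate 2 (0.112) or either DN3b sample (0.0512 and 0.0521). Both turned direction where entries of exactly 1 were kept as 1 rather than read as 0. The median difference of the 7 receptors was -0.57, -2.42, -1.53, -1.31 and -1.11 in the 5 steps.

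In DN3a cells of Rag2(-/-) mice, which stop before beta-selection, 2 of 7 receptors were called against wild-type DN3a cells, against 26.4% of all genes. Rag2 RNA was 35.5 to 42.2 TPM in the Rag2(-/-) and 48.7 to 75.5 TPM in the wild-type DN3a samples. Those values cover the whole gene and do not check the label. Kit was 19.9 and 17.2 TPM against 36.4 and 37.0 TPM and fell by 0.98 (SE 0.15, limma adjusted p = 0.000611), or by 0.80 relative to the median gene. Csf1r was 0.320 and 1.53 TPM against 0.0394 and 0.107 TPM (2.29 ± 0.46, adjusted p = 0.00294), levels at which macrophage markers were also higher, at 81.0 to 138 TPM against 56.5 to 62.9 TPM. Il7r, at 85.0 and 78.2 TPM, overlapped with the wild-type samples (-0.02, adjusted p = 0.965), and so did Crlf2 at 77.8 and 81.6 TPM (0.16, adjusted p = 0.483). Flt3 (-0.51, adjusted p = 0.39), Csf3r (-0.64, adjusted p = 0.126) and Csf2rb (0.34, adjusted p = 0.51) did not pass.

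The partner chains and other receptors of the family were described in the same way, with a list of 10 genes that includes Csf2ra, Csf2rb2, Il3ra, Il5ra, Il2rg, Il6ra, Il6st and Epor. Of the 9 tested in the Pax5 set, none was called in the 7 genotypes other than Pax5(DCRD1,2/DCRD1,2), Pax5(DCRD1,2/-) and Vav-Cre Pax5(fl/fl), where between 0 and 5 of them had an unadjusted p below 0.05 in limma. In Vav-Cre Pax5(fl/fl) cells 4 were higher and 2 lower, against 37.1% of all genes called. Csf2rb2, the copy of Csf2rb that serves interleukin 3 alone, was higher by 2.34 on the log2 scale (42.5 against 7.74 TPM). Il6st, the signalling chain for interleukin 6, was higher by 1.79 (74.9 against 20.8 TPM) and Il6ra, its binding chain, by 1.70 (12.3 against 3.57 TPM), while Il5ra, the interleukin 5 binding chain, was lower by 2.33. Il2rg, the common gamma chain that completes the interleukin 7 receptor, was higher by 0.74 in both genotypes without CRD1 and CRD2, with 217 against 146 TPM in Pax5(DCRD1,2/DCRD1,2) cells. Epor, the erythropoietin receptor, was lower in Pax5(DCRD1,2/-) cells (0.438 against 4.30 TPM), where 7 erythroid markers summed to 35.5 to 40.2 TPM against 174 to 493 TPM in Pax5(+/+) samples, and their part in it was not tested.

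In the Prd experiment 4 of the 8 tested were higher without Pax5, against 39.9% of all genes called, with Csf2rb2 and Il6st both at 1.67, Il6ra at 1.07 and Il2rg at 0.68 on the log2 scale. With the paired domain alone 4 were higher and 1 lower, against 40.7% of all genes, with Il6ra at 2.21, Csf2rb2 at 1.51, Il6st at 1.29 and Epor at -1.62. Il6ra was also higher by 1.14 in Vav-Cre Pax5(Prd/fl) than in Vav-Cre Pax5(fl/fl) cells. The median over the list was 0.88 in both comparisons with the control, against 0.00 and 0.08 over all genes.

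Along the T lineage, 2 of the 9 tested rose and 3 fell from LMPP to DN1, where 18.6% of all genes were called. From DN1 to DN2a 5 of 9 fell and none rose, against 22.9% of all genes called lower, with Csf2rb2 going from 4.81 to 0.0816 TPM. From DN2b to DN3a 3 rose and 1 fell, against 45.8% of all genes called, among them Il2rg from 302 to 440 TPM. From DN3a to DN3b 5 fell and none rose, against 53.4% of all genes called, among them Csf2ra (-2.27), Il3ra (-1.33) and Il2rg (-1.20). In Rag2(-/-) DN3a cells Csf2ra, the alpha chain for GM-CSF, was at 17.0 against 40.7 TPM.

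Ligands of the 7 receptors were mostly not measurable in these cells, and 2 of the list of 10 (Csf1 and Flt3l) passed the filter on low values in the Pax5 set. Csf1 was lower by 0.85 in Vav-Cre Pax5(fl/fl) cells. Flt3l, the ligand of Flt3, was higher by 0.98 in Vav-Cre Pax5(Prd/fl) and by 0.59 in Vav-Cre Pax5(fl/fl) cells of the Prd experiment, at 24.0 and 18.2 against 12.0 TPM in the controls. Along the T lineage 5 of 10 were tested, and Il34, a second ligand of Csf1r, was at 0.0243 TPM in DN2b and 31.7 TPM in DN3a samples, a rise by 8.03, and fell by 5.60 from DN3a to DN3b. Tslp, the ligand of Crlf2, fell by 3.49 in that step.

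Of 18 genes for kinases, STATs, phosphatases and adaptors next to the receptors, Pik3r1, the regulatory subunit of phosphoinositide 3-kinase, was called in most genotypes. It was higher by 0.68 in Pax5(DCRD1/DCRD1), 1.01 in Pax5(DCRD1/-), 0.82 in Pax5(DCRD2/-) and 0.67 in Pax5(DOP,HD/DOP,HD) cells, as the only call of the list in each, where 9.63%, 12.4%, 1.5% and 1.78% of all genes were called. In Pax5(DCRD1,2/DCRD1,2) cells 1 was higher and 7 lower, against 26.3% of all genes called, with Pik3r1 at 0.85, the adaptors Gab2 at -0.72 and Shc1 at -0.62 and the transcription factor Stat3 at -0.52. In Pax5(DCRD1,2/-) cells 2 were higher and 7 lower, against 25.9%, with Pik3r1 at 0.88, Gab2 at -0.74, Stat3 at -0.59 and Shc1 at -0.55. In Vav-Cre Pax5(fl/fl) cells 5 were higher and 3 lower, against 37.1%, with Pik3r1 at 181 against 46.1 TPM (1.70), the kinase Lyn at -0.68 and the phosphatase Ptpn6 at 0.61. The list median was -0.21, -0.22 and 0.10 in these 3 genotypes, against values between -0.04 and 0.00 over all genes.

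In the Prd experiment 2 of these 18 were higher and 7 lower without Pax5, and 4 higher and 3 lower with the paired domain alone, against 39.9% and 40.7% of all genes called. From DN3a to DN3b 12 fell and none rose, against 53.4% of all genes called, with Gab2 at -2.82 and the ubiquitin ligase Cblb at -2.81, against a list median of -0.93 and a median of -0.41 over all genes. From DN2b to DN3a 4 rose and 3 fell, with Cblb at 2.47, against 45.8% of all genes called, and from DN1 to DN2a 6 fell and none rose, against 22.9% called lower.

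Of 14 feedback inhibitors and target genes of these receptors, the cell-cycle genes Ccnd2 and Myc rose with loss of CRD1. Ccnd2, which encodes cyclin D2, was higher by 0.89 in Pax5(DCRD1/DCRD1), 1.15 in Pax5(DCRD1/-), 1.39 in Pax5(DCRD1,2/DCRD1,2), 1.53 in Pax5(DCRD1,2/-) and 2.18 in Vav-Cre Pax5(fl/fl) cells (451 against 97.7 TPM). Myc was higher by 0.97, 0.92, 1.56, 1.43 and 1.47 in the same genotypes. Ccnd3, which encodes cyclin D3, went the other way, at -1.45 in Pax5(DCRD1,2/DCRD1,2), -1.16 in Pax5(DCRD1,2/-) and -1.36 in Vav-Cre Pax5(fl/fl) cells. Bcl2, a survival factor downstream of interleukin 7, was at -1.08 in Pax5(DCRD1/DCRD1) cells and also called lower in Pax5(DCRD1/-) cells, and Cish, a feedback inhibitor induced by STAT5, at 1.18 in Pax5(DCRD1/-) cells. In Pax5(DCRD2/-) cells 1 was higher and 2 lower, against 1.5% of all genes called, with the inhibitors Socs3 at -1.95 and Socs2 at -0.94 and Dusp6, an inhibitor of the ERK pathway, at 0.48.

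Counted over the whole list, 3 were higher and 1 lower in Pax5(DCRD1/DCRD1), 4 and 1 in Pax5(DCRD1/-), 3 and 3 in Pax5(DCRD1,2/DCRD1,2), 2 and 2 in Pax5(DCRD1,2/-) and 6 and 5 in Vav-Cre Pax5(fl/fl) cells, against 9.63%, 12.4%, 26.3%, 25.9% and 37.1% of all genes called in either direction. In the Prd experiment 5 were higher and 3 lower without Pax5 and 7 higher and 2 lower with the paired domain alone, against 39.9% and 40.7% of all genes called. With the paired domain alone Myc was at 1.86, Cish at 1.80, Ccnd3 at -1.80 and Ccnd2 at 1.26. From DN2b to DN3a Socs3 (2.33), Cish (1.57) and Myc (1.46) rose among 6 that rose and 4 that fell, against 45.8% of all genes called. From DN3a to DN3b 8 fell and 2 rose, against 53.4%, with Cish at -4.40, Socs3 at -3.67 and Socs2 at -3.20, beside the fall of Il7r, and the list median was -1.40 against -0.41 over all genes.

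The genes whose levels ran most like each receptor differed between the receptors. Over the 25 samples of the first Pax5 set, Flt3 ran most like Dtx4, Pglyrp2 and Gimap7 (Pearson r = 0.97 for each). Csf2rb ran most like its copy Csf2rb2 (0.95), Il7r like Tspan5 (0.91), Kit like Gng4 (0.85) and Crlf2 like Ppp1r37 (0.93). Csf3r ran most like the granulocyte genes Mmp9 and Pglyrp1 (both 0.96), and Csf1r like Anxa2 (0.95), with Cebpe, a granulocyte transcription factor, also close (0.93). Over the 17 T-lineage samples, Kit ran most like Spi1, which encodes the myeloid and lymphoid regulator PU.1 (1.00), Flt3 like Rab3il1 (0.99), Csf2rb like Mn1 (0.99), Csf3r like Procr (0.99), Csf1r like Calhm2 (0.98) and Il7r like Fhl2 (0.98). These correlations are across samples of shared genotypes or stages, share the depth and composition of each library, and are given as a description.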

How the data were processed

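Poly(A) RNA-seq was available for 48 samples of the 71 in the series, and ChIP-seq and ATAC-seq samples were not used here. For the 31 samples of the Pax5 experiments the authors aligned reads cut to 50 bases to GRCm38/mm10 and deposited TPM values for 25579 genes, with raw read counts deposited for 2 samples. The submitters' processing notes name STAR 2.4.2a, TopHat 1.4.1, Bowtie 1.0.0 and SAMtools 1.9. For the 17 T-lineage samples the authors deposited TPM values on mm9, with 2 rows per gene. The 2 rows were averaged here, and entries of exactly 1 were read as 0, because no entry was 0 and the other entries add up to the same total in each file, although the meaning of such entries, and of a name suffix carried by Csf1r and Csf2rb, was not given in the sources used here. In the Pax5 set 8 files had no gene names and were read in the row order of Pax5(+/+) replicate 3, which all 23 named files share.

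TPM was transformed as log2(TPM + 0.1), genes above 1 TPM in at least 1 sample were kept, and limma 3.58.1 (R 4.3.3) was fitted with a trended variance, two-sided, with Benjamini-Hochberg adjustment over all genes tested and a call at an adjusted p below 0.05. Separate models held the 25 samples of the first Pax5 set with read length as a term (14000 genes), the 6 of the Prd experiment (12941 genes) and the 17 T-lineage samples (13482 genes). Depth could be recovered for the Pax5 set, where 100% of the TPM values correspond to whole reads within 0.05 reads, and is unknown for the T-lineage files. As an alternative, edgeR 4.0.16 was run on the recovered reads (13602 genes). Other alternatives were pseudocounts of 1 and 0.01, other filters on low values, quantile normalization, no variance trend, no read length term, models by experiment, a replicate block, the higher or lower of the 2 rows, and leaving out each library. Scripts were tested on simulated data. All 7 receptors are named, and from 4 further lists up to 4 called genes with the largest change per comparison. Likeness was ranked by Pearson correlation. The members and lists were chosen with earlier results of these data known.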

Additional observations from a re-analysis of the deposited data

How the results depend on the processing

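Of the 63 calls of a receptor in a comparison, 42 were kept in each alternative fit run. In 1720 alternative fits of these calls 1600 kept the direction and the call, 118 lost the call and 2 reversed it. Both reversals were in DN3b against DN3a cells with entries of exactly 1 kept as 1, where the log2 difference became 2.27 for Flt3 and 2.51 for Csf3r, since samples otherwise read as 0 then hold 1 TPM. The number of calls in the 10 genotypes against Pax5(+/+) was 15, 14 to 21 under other settings and 13 to 18 with any library left out. Between mutants it was 6, and 3 to 7 with any library left out, lowest without Pax5(DHD/DHD) replicate 2, with 4 to 10 under other settings, and the interaction of CRD2 loss had 0 calls under other settings and with any library left out. Without the granulocyte-rich libraries, a choice made after seeing the data, it became 7 between mutants, where 4 would compare, and 1 (Il7r) in the interaction. In the Prd experiment the 12 calls became 9 to 13 with a library left out and 10 to 12 otherwise. Over the stage steps the 28 calls became 23 to 28, lowest without DN3a replicate 2, and 25 to 28 otherwise, and the 2 calls in Rag2(-/-) cells became 2 to 3. Replicate numbers did not pair the samples, since deviations of same-numbered samples had a median correlation of 0.0059 in the first Pax5 set, -0.10 in the Prd experiment and -0.0058 along the stages. With a replicate block and without read length, a fit chosen after seeing the data because both terms could not be fitted together, the calls were 21 against Pax5(+/+) and 10 between mutants, with 0 in the interaction. That fit lost all 5 Il7r calls against Pax5(+/+) (log2 0.11 to 0.58, adjusted p 0.0635 to 0.727), the Kit call in Pax5(DCRD1/DCRD1) (0.54, adjusted p = 0.0549) and the Csf2rb call in Pax5(DCRD1,2/DCRD1,2) cells (adjusted p = 0.247). With the block they were 11 in the Prd experiment, 27 over the stage steps and 2 in Rag2(-/-) cells. In the first Pax5 set, replicate numbers 3 to 5 occur only in Pax5(+/+). The block there leaves Pax5(+/+) replicates 1 and 2, both of 50 nucleotides, as the only control. Control Il7r averaged 211 TPM at 50 and 113 TPM at 100 nucleotides, so the Il7r differences of 100-nucleotide genotypes crossed read lengths in that fit. The cause of the other shifts was not tested. Depth limits Csf1r and Csf3r most, with medians of 174 and 89 reads.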
